A study of Oryza sativa with 6 samples.

Results

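The 200 genes described here were those of the rice flag leaf whose transcript levels differed most among the 3 WT libraries. They were taken from the 12755 genes that carried an identifier of the Rice Annotation Project (RAP) and had a mean WT FPKM of at least 5, where FPKM is the number of fragments scaled to gene length and to the size of the library. The files held 37869 RAP identifiers among 91180 features. Members were the genes with the largest standard deviation (SD) of log2(FPKM + 1) over the WT libraries. That SD chose them, so the WT values are given as a description, without a test. The OsRUS1-OX libraries played no part in the choice.

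OsRUS1-OX was a single line, of several independent ones, of the cultivar ZhongHua11 that overexpressed OsRUS1 fused to the green fluorescent protein (OsRUS1-GFP), and WT was ZhongHua11 itself. Flag leaves were picked from field plants at the heading stage at 11 h on a sunny day, when OsRUS1-OX leaves were rolled and WT leaves were expanded, so genotype and leaf state cannot be told apart. Leaves were collected 3 times independently, and each of the 3 libraries per genotype held RNA of 3 pooled plants. Pools of 1 genotype differ in the plants picked, the collection and the handling of each pool, and their SD holds all of these.

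A plant leaf adjusts its transcripts to light, temperature, wounding, water status and hour of the day. Genes of defence, hormone synthesis and metabolism are known to respond fast to such cues, so they tend to differ between leaves of the same genotype. In RNA from whole leaves, fewer cells of a type and less RNA per cell cannot be told apart.

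The libraries held between 11918655 and 13532579 reads on genes in OsRUS1-OX and between 8759812 and 11744177 in WT. OS04G0290800, taken as the overexpressed gene because its description names vitamin B6 photo-protection, a function tied to RUS genes, had 244, 131 and 249 FPKM in OsRUS1-OX and 2.90, 4.55 and 4.20 FPKM in WT. OsRUS1 carries another kind of locus number in the study, which was not matched here, and if OS04G0290800 is that gene, no library went against its label. The chlorophyll a-b binding protein gene OS01G0600900, a leaf marker, had 5618, 5063 and 6139.8 FPKM in OsRUS1-OX and 2930.4, 2424 and 2487 FPKM in WT. Another leaf marker, the rubisco small subunit gene OS12G0292400, ran in the other direction, with 83.0, 73.3 and 79.6 FPKM in OsRUS1-OX and 221, 149 and 133 FPKM in WT. WT replicate 2 stood apart by gene length. Over all 12755 genes, its median deviation from the other WT libraries was 0.28 log2 units in the shortest of 10 equal groups by length (up to 676 bp) and -0.25 in the longest (from 2701 bp). OsRUS1-OX replicate 2 ran the other way with a smaller range, from -0.09 to 0.03.

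**Figure D1:**
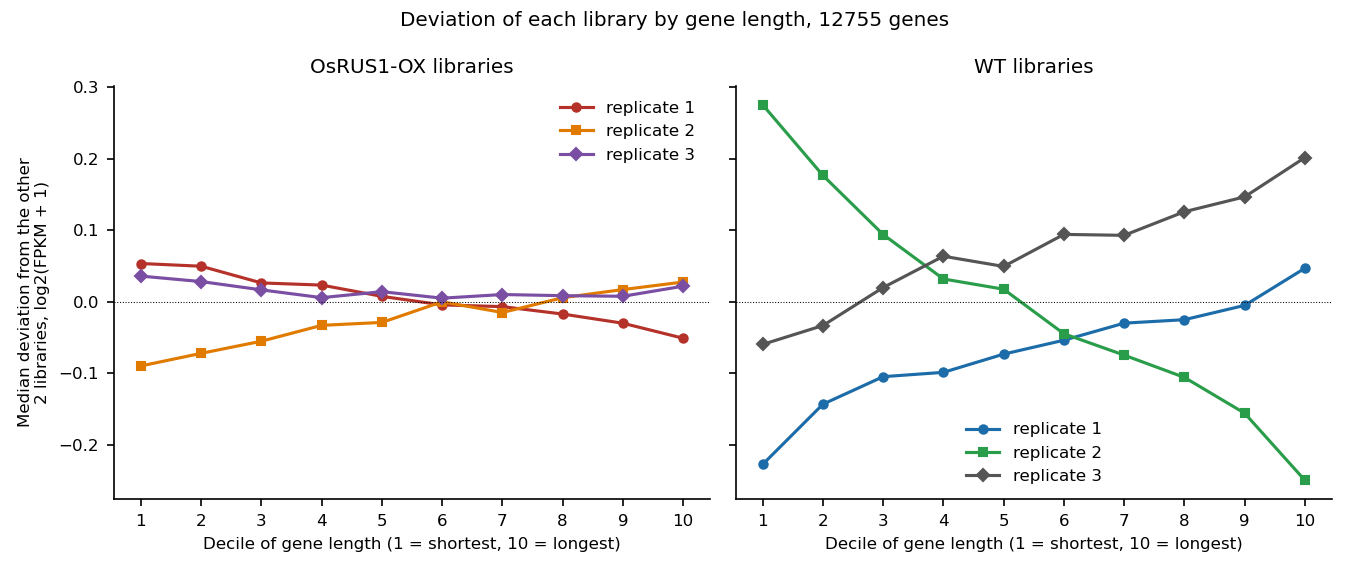
Median deviation of each library from the other 2 libraries of its genotype (log2(FPKM + 1), y axis) for the 12755 genes split into 10 equal groups by length (x axis, shortest to longest), with OsRUS1-OX on the left and WT on the right. WT replicate 2 falls from 0.28 to -0.25, while WT replicates 1 and 3 climb with length and the OsRUS1-OX libraries stay between -0.09 and 0.05. The fall of WT replicate 2 enters the deviations of WT replicates 1 and 3, so their climb is not a separate result.

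The SD of the members over WT ranged from 0.86 to 3.05 log2 units, with a median of 0.99, against a median of 0.21 over the 12755 genes. The 3 last members, OS10G0356000, OS05G0553400 and OS05G0198200, had SDs of 0.86, and the first genes left out, OS04G0307500, OS08G0235800 and OS01G0818700, had 0.86 each as well, so the boundary did not fall at a gap. The highest WT FPKM of a member was between 2.97 and 45.8 times its lowest, with a median of 4.20, and in 8 members it was over 10 times. The members had a median of 587.5 reads over the WT libraries, and 3 had under 50. Their mean WT FPKM ran from 5.02 to 4275, with a median of 16.3 beside 19.3 over all eligible genes, and 12 members exceeded 100.

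WT replicate 2 was the library farthest from the middle value in 119 of the 200 members, 87 times below and 32 times above the other libraries. WT replicate 3 was farthest in 43 members (29 above, 14 below) and WT replicate 1 in 38 (24 above, 14 below). Over the 12755 genes, WT replicate 2 was farthest in 47.6%, WT replicate 3 in 26.2% and WT replicate 1 in 26.1%. In 159 members the gap of the farthest library was at least 2 times the gap between the other libraries, so a single library carried the spread, and in 41 the values were graded. These counts define the 6 classes used below.

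**Figure D2:**
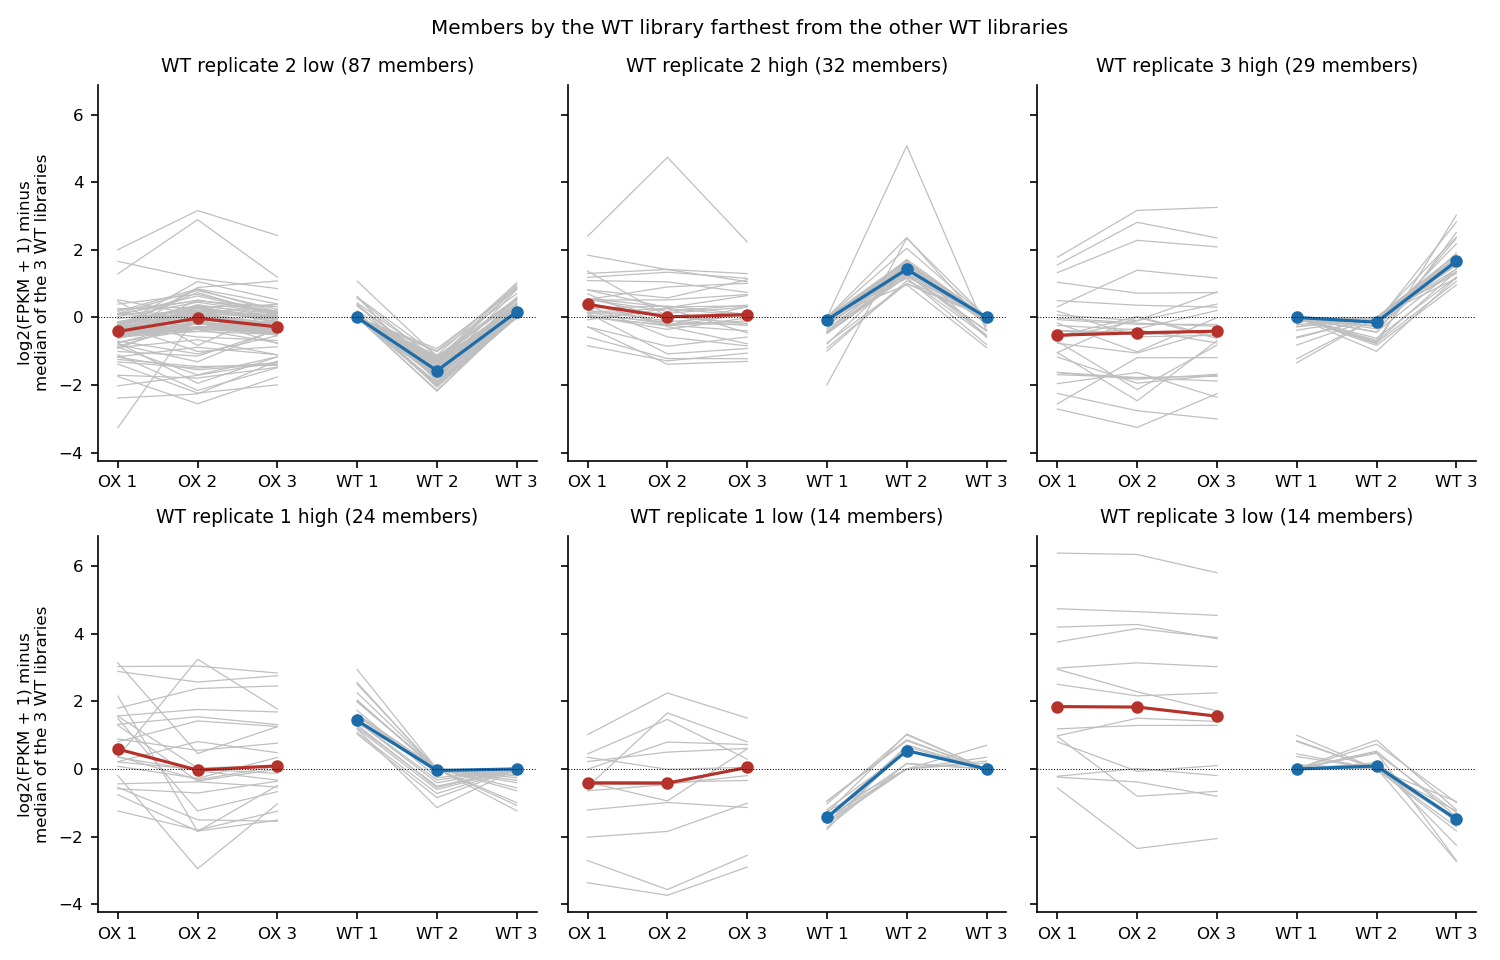
Log2(FPKM + 1) of each member relative to the median of its 3 WT libraries (y axis) in the 3 OsRUS1-OX (OX) and 3 WT libraries (x axis), 1 panel per class. Thin lines join the values of 1 gene, and coloured points are class medians, red for OsRUS1-OX and blue for WT. The WT library farthest out defines each panel, and 41 of the 200 members have graded WT values. In the class with WT replicate 3 low the OsRUS1-OX values lie above every WT library in 9 of 14 members and overlap with WT in 5.

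In the 87 members low in WT replicate 2, that library was a median of 3.74-fold below the mean of the other WT libraries, with a range from 2.72 to 6.90, while the other WT libraries differed by a median of 1.17-fold from each other. The OsRUS1-OX mean was a median of 0.78 times the mean of WT replicates 1 and 3. It lay nearer to them than to WT replicate 2 in 70 of 87 members. It was inside the WT range in 72, beside 4940 of the 12755 genes. The departure of WT replicate 2 defines the class, and the wide WT range favours both counts. OS05G0163250 had 18.2, 25.8 and 18.0 FPKM in OsRUS1-OX and 25.7, 4.89 and 27.4 FPKM in WT. OS09G0252700 had 7.33, 10.3 and 7.85 FPKM in OsRUS1-OX and 11.8, 1.86 and 12.3 FPKM in WT. WT replicate 2 was below every other library in both genes, and the remaining WT values overlapped or exceeded those of OsRUS1-OX. OS01G0660200, with graded values, had 3.70, 7.60 and 4.19 FPKM in OsRUS1-OX and 7.85, 1.86 and 14.7 FPKM in WT.

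At high expression the pattern was seen in OS02G0698000 but not in OS04G0538166, which was also named after its values were seen. OS04G0538166 had 252, 194 and 219 FPKM in OsRUS1-OX and 570.5, 195 and 692 FPKM in WT, so OsRUS1-OX lay near WT replicate 2. OS02G0698000, named for its level after the values were seen, was the most abundant of the class, with 577, 612 and 552 FPKM in OsRUS1-OX and 845, 233 and 769.8 FPKM in WT. It rested on 4259 reads in WT replicate 2 and at least 11527 in each other WT library. By contrast OS01G0117266, which had the largest SD of the class, rested on 57, 9 and 44 reads in WT. It had 3.97, 3.52 and 6.69 FPKM in OsRUS1-OX and 14.4, 1.69 and 8.98 FPKM in WT.

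The 87 genes had a median length of 1557 bp, against 1459 bp over the 12755 genes, and both ends of the length range were represented, with 16 of them in the shortest and 13 in the longest of the 10 length groups. The class also held many late additions to the annotation. RAP numbers were first given in round steps along each chromosome and genes added later took numbers between them, and 36.8% of the class (32 genes) had such a number against 6.14% of the 12755 genes. A share of 31.3% was found in the class high in WT replicate 2, 24.5% over all 200 members and 0 genes in the class low in WT replicate 3. What these added genes encode was not examined here.

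The 32 members high in WT replicate 2 were short, with a median length of 529.5 bp and none longer than 1551 bp, and 19 of them were in the shortest of the 10 length groups. WT replicate 2 exceeded the mean of the other WT libraries by a median of 3.12-fold. OsRUS1-OX lay nearer to the other WT libraries in 23 of 32 members, at a median of 1.32 times their mean. The class definition favours this order as well. The gene with the largest SD of all, OS01G0791033, had 110.0, 42.8 and 36.9 FPKM in OsRUS1-OX and 41.9, 1447.5 and 31.6 FPKM in WT. Its 13770 reads in WT replicate 2 stood against 297 and 277 in the other WT libraries. OS12G0207600 had 14.7, 7.02 and 4.64 FPKM in OsRUS1-OX and 8.68, 48.7 and 7.09 FPKM in WT, so WT replicate 2 alone stood out. OS10G0340950, with a length of 62 bp, was a member through 0, 14 and 2 reads in WT and carries little weight.

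Membership was then set against gene length. After log2(FPKM + 1) was centred on the median of its length group in each library, an alternative added after the data were examined, 159 of the 200 members were again among the top 200. The WT replicate 2 classes then held 92 low and 20 high genes. Without WT replicate 2, only 76 of the members were among the 200 genes with the largest SD over WT replicates 1 and 3.

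Of the 200 members, 14 had a description in the study's tables (7%), against 1422 of the 12755 genes (11.1%). These tables describe genes that the study called different between the genotypes, and 11 of the 14 were also called here. Functional lists over the members are therefore void, since fewer than 80% of the genes could be assigned, and no function can be named for 186 of them. The described members fell unevenly over the classes, with 7 in the class low in WT replicate 3, 4 in the class high in WT replicate 3, 2 in the class high in WT replicate 1 and 1 in the class low in WT replicate 2. Since a call in OsRUS1-OX put a gene into those tables, the distribution says nothing of the undescribed members.

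**Figure D3:**
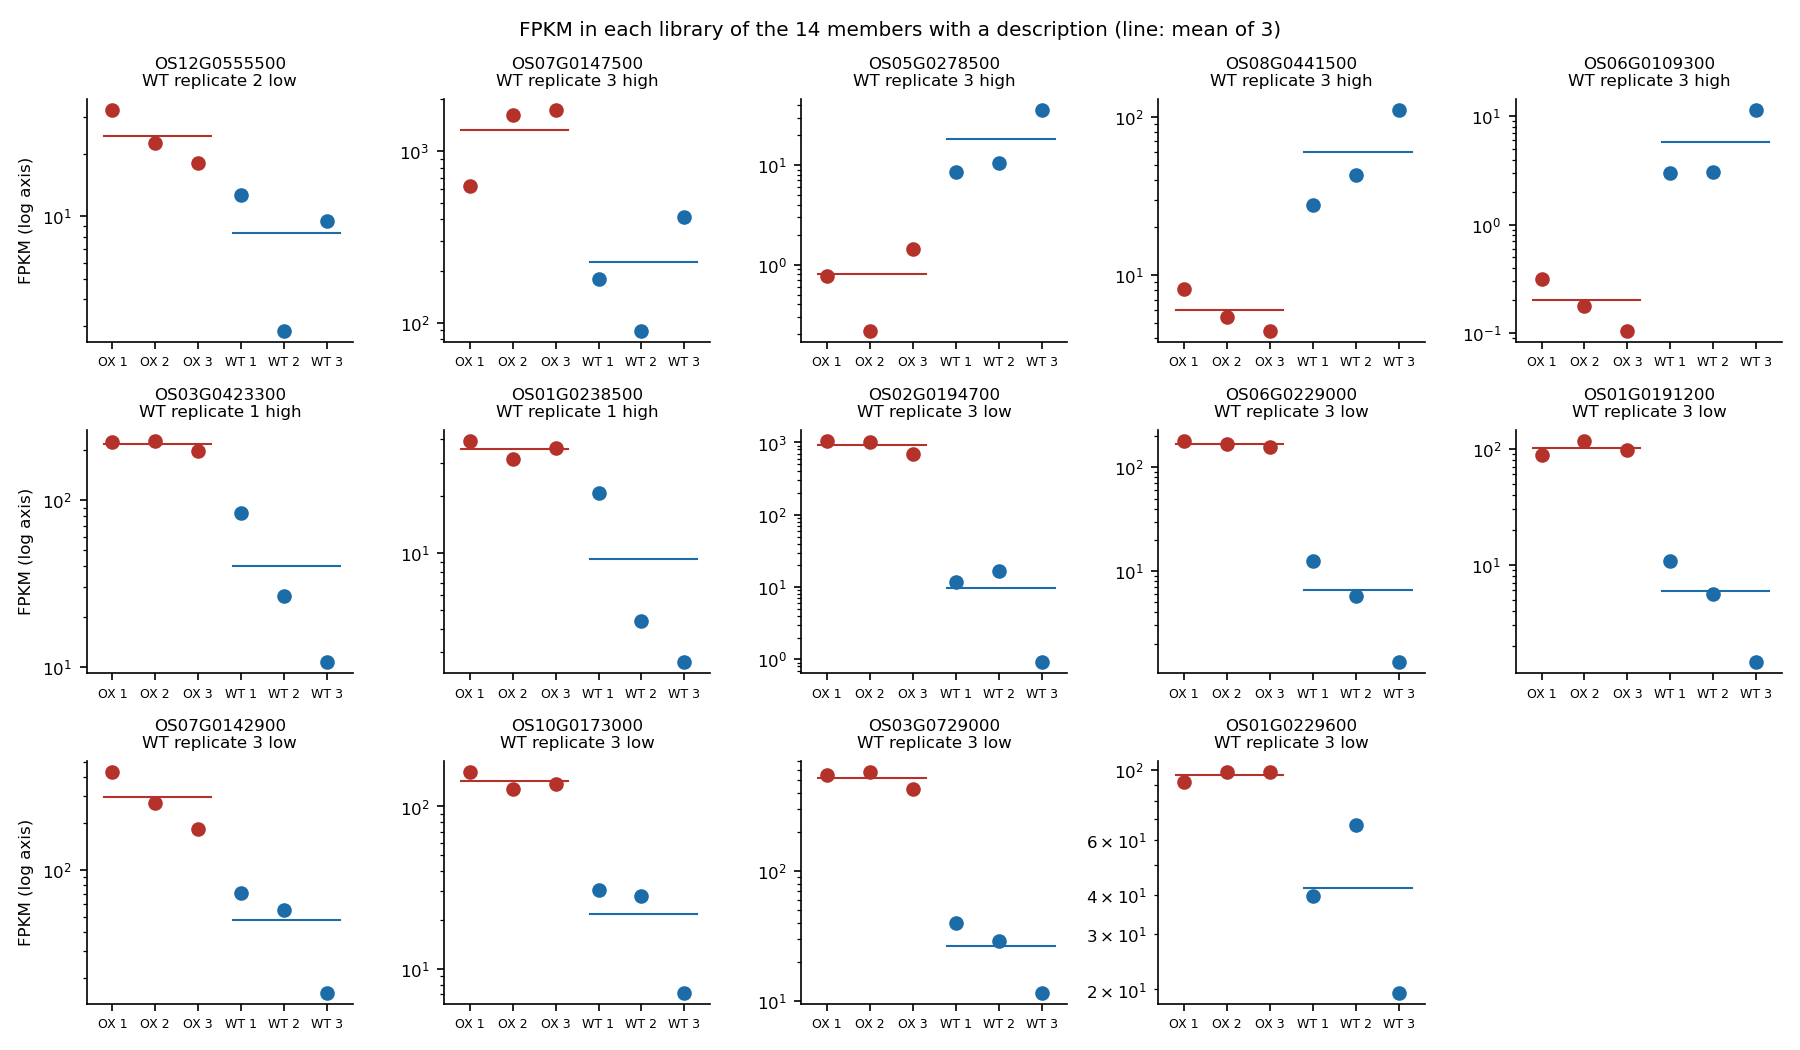
FPKM (log axis) of the 14 described members in the 3 OsRUS1-OX (OX, red) and 3 WT (blue) libraries, with lines at the means and the class under each identifier. All 7 panels of the class low in WT replicate 3 show OsRUS1-OX above every WT library, and 3 of the 4 panels of the class high in WT replicate 3 show it below.

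In the 14 members low in WT replicate 3, OsRUS1-OX was above every WT library in 9 and below in none, beside 21.8% above and 21.1% below over the 12755 genes. The low WT library defining the class makes a place below all WT libraries harder to reach. That library leaves the highest WT value unchanged. The OsRUS1-OX mean was a median of 3.56 times that of WT replicates 1 and 2. In 5 of the 14 members the WT values were graded, among them OS06G0229000, OS01G0191200 and OS09G0517000. The class held a lipid oxidation gene, a pair of metallopeptidase genes, an acid phosphatase gene, an aldo/keto reductase gene, a thioesterase gene and a transport gene. OS02G0194700 encodes a lipoxygenase, an enzyme that oxygenates polyunsaturated fatty acids and that the study's tables place in jasmonate synthesis. It had 1049.8, 1020.6 and 701 FPKM in OsRUS1-OX and 11.6, 16.7 and 0.92 FPKM in WT. OsRUS1-OX exceeded WT by a log2 fold change of 6.47 (standard error 0.92, Benjamini-Hochberg adjusted p = 0.0026 in the quasi-likelihood fit of edgeR over all tested features). The lowest OsRUS1-OX value stood far above the highest WT value, although the WT libraries differed by 18.0-fold among themselves.

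OS06G0229000, which carries a peptidase M41 domain, the domain of membrane-bound metalloproteases, had 180, 169 and 157 FPKM in OsRUS1-OX and 12.5, 5.77 and 1.33 FPKM in WT (log2 fold change 4.64, standard error 0.56, adjusted p = 0.0015 from edgeR). OS03G0729000, placed among metalloproteases of protein degradation, had 546, 578 and 431 FPKM in OsRUS1-OX and 39.7, 28.9 and 11.6 FPKM in WT (log2 fold change 4.19, standard error 0.45, adjusted p = 0.0010 from edgeR). Both rose in OsRUS1-OX, and in both WT replicate 1 was the highest and WT replicate 3 the lowest of the WT libraries. OS01G0191200, described as a plant acid phosphatase of class B related to vegetative storage proteins, an enzyme type that releases phosphate from organic esters, had 88.6, 117 and 97.0 FPKM in OsRUS1-OX and 10.8, 5.62 and 1.45 FPKM in WT (log2 fold change 4.02, standard error 0.56, adjusted p = 0.0024 from edgeR).

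OS07G0142900 belongs to the aldo/keto reductases, which reduce carbonyl compounds with NADPH. Its values were 430, 271 and 183 FPKM in OsRUS1-OX and 71.1, 54.9 and 16.1 FPKM in WT, and it rose by 2.55 on the log2 scale (standard error 0.55, adjusted p = 0.014 from edgeR). OS10G0173000, for which the tables give only a transport function, had 163, 129 and 137 FPKM in OsRUS1-OX and 30.6, 28.0 and 7.13 FPKM in WT (log2 fold change 2.62, standard error 0.46, adjusted p = 0.0063 from edgeR). The undescribed OS09G0517000 had 50.2, 56.0 and 51.7 FPKM in OsRUS1-OX and 10.4, 5.47 and 2.32 FPKM in WT (log2 fold change 3.06, standard error 0.42, adjusted p = 0.0024 from edgeR). In these genes too, no WT library reached the lowest OsRUS1-OX library.

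The 7 remaining members of the class were not called. OS01G0229600, an acyl-CoA thioesterase gene of the HotDog fold, was the most even in OsRUS1-OX, with 91.9, 98.7 and 98.7 FPKM, against 39.8, 66.9 and 19.5 FPKM in WT (adjusted p = 0.075 from edgeR). OS01G0322700 had 29.0, 42.1 and 39.3 FPKM in OsRUS1-OX and 14.2, 15.9 and 2.19 FPKM in WT (adjusted p = 0.066 from edgeR). OS08G0455900 was the clearest case of a departure of WT replicate 3 alone, with 38.5, 45.3 and 39.1 FPKM in OsRUS1-OX and 44.9, 45.7 and 5.92 FPKM in WT. There the OsRUS1-OX libraries and the other WT libraries overlapped.

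Among the 29 members high in WT replicate 3, OsRUS1-OX was below every WT library in 11 and above in 3, beside 21.1% below and 21.8% above over the 12755 genes, and the high WT library that defines the class favours a lower OsRUS1-OX level relative to the WT mean. WT replicate 3 exceeded the mean of the other WT libraries by a median of 3.78-fold. OS05G0278500 encodes an acyltransferase of phenylpropanoid metabolism, the route to lignin and many phenolic compounds. It had 0.77, 0.22 and 1.43 FPKM in OsRUS1-OX and 8.54, 10.6 and 35.8 FPKM in WT (log2 fold change -4.51, standard error 0.70, adjusted p = 0.0039 from edgeR). OS08G0441500, an oxidoreductase gene that the tables assign to phenylpropanoid biosynthesis, had 8.18, 5.44 and 4.44 FPKM in OsRUS1-OX and 27.6, 42.6 and 111 FPKM in WT (log2 fold change -3.36, standard error 0.50, adjusted p = 0.0032 from edgeR). Both fell in OsRUS1-OX, and in both WT replicate 3 was the highest of the 6 libraries.

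OS06G0109300, a drug/metabolite transporter gene, fell to 0.32, 0.18 and 0.10 FPKM in OsRUS1-OX, against 2.98, 3.06 and 11.5 FPKM in WT (log2 fold change -4.86, standard error 0.71, adjusted p = 0.0030 from edgeR). The log2 fold change was -3.98 without WT replicate 3, and -2.29 in limma on log2(FPKM + 1), a scale that understates the change of low genes. The undescribed OS07G0671000 had 8.14, 7.63 and 7.84 FPKM in OsRUS1-OX and 28.5, 25.8 and 87.6 FPKM in WT (log2 fold change -2.63, standard error 0.46, adjusted p = 0.0062 from edgeR). OS01G0106400 had 2.67, 3.62 and 1.78 FPKM in OsRUS1-OX and 4.64, 13.3 and 45.5 FPKM in WT, and fell by 3.01 on the log2 scale (standard error 0.74, adjusted p = 0.022 from edgeR). Its call was lost when any 1 OsRUS1-OX library was left out, with adjusted p from 0.059 to 0.089, and in limma (adjusted p = 0.062). Without WT replicate 3, the library that put it in the class, its difference was -1.86 on the log2 scale (adjusted p = 0.037 from edgeR).

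OS07G0147500, the exception among the described genes of this class, encodes PsbR, a small subunit of photosystem II that helps to hold the oxygen-evolving proteins in place. It had 623, 1629 and 1732 FPKM in OsRUS1-OX and 180.4, 89.5 and 410.4 FPKM in WT (log2 fold change 2.51, standard error 0.57, adjusted p = 0.017 from edgeR). It rose in OsRUS1-OX and was uneven in both genotypes, with OsRUS1-OX replicate 1 far below its fellows. Without WT replicate 1 the adjusted p was 0.060, without OsRUS1-OX replicate 2 it was 0.053 and without OsRUS1-OX replicate 3 it was 0.056.

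In other members of the class most of the difference lay in WT replicate 3. OS01G0896800 had 6.39, 5.64 and 5.21 FPKM in OsRUS1-OX and 6.46, 3.35 and 59.8 FPKM in WT. OS05G0541900 had 1.15, 1.05 and 1.14 FPKM in OsRUS1-OX and 1.81, 1.52 and 18.8 FPKM in WT. OS10G0214132 had 1.12, 2.20 and 1.11 FPKM in OsRUS1-OX and 2.14, 0.96 and 17.0 FPKM in WT, on 5, 3 and 49 WT reads. In all 3 genes WT replicate 3 was above every other library, and in OS05G0541900 the OsRUS1-OX values were also below every WT value. The first 2 genes were tested and not called, and OS10G0214132 did not pass the filter on low counts.

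The 24 members high in WT replicate 1 had a median OsRUS1-OX mean of 1.79 times that of the other WT libraries (quartiles 1.07 and 3.66), and 5 of them were within 1.5-fold. The OsRUS1-OX mean lay nearer to the other WT libraries than to WT replicate 1 in 15 members. It was inside the WT range in 15, and the wide WT range favours both counts. OS03G0423300 encodes a type 2 fatty acid desaturase, which places the first double bond in fatty acids bound to acyl carrier protein. It had 224, 226 and 196 FPKM in OsRUS1-OX and 83.5, 26.5 and 10.7 FPKM in WT, and it rose by 2.33 on the log2 scale (standard error 0.64, adjusted p = 0.034 from edgeR). The adjusted p was 0.087 without WT replicate 2 and between 0.061 and 0.085 without any 1 of the OsRUS1-OX libraries. OS01G0238500, a class IV aminotransferase gene assigned to folate biosynthesis, had 39.0, 31.2 and 35.6 FPKM in OsRUS1-OX and 20.8, 4.42 and 2.68 FPKM in WT, and it was not called (adjusted p = 0.074 from edgeR). In both genes OsRUS1-OX was even and above every WT library.

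OS10G0542900 had 2.17, 1.72 and 1.52 FPKM in OsRUS1-OX and 20.1, 1.75 and 1.38 FPKM in WT. Its near neighbour OS10G0543400 had 1.56, 0.32 and 0.28 FPKM in OsRUS1-OX and 20.3, 2.74 and 0.88 FPKM in WT. WT replicate 1 stood apart in both. OS10G0491000 had 12.2, 14.4 and 12.1 FPKM in OsRUS1-OX and 24.1, 4.28 and 2.38 FPKM in WT, and OS05G0227600 had 11.4, 17.6 and 18.6 FPKM in OsRUS1-OX and 20.04, 2.47 and 2.58 FPKM in WT. In this pair the OsRUS1-OX values lay between WT replicate 1 and the other WT libraries. OS05G0312600 fell to 0.63, 0.10 and 0.62 FPKM in OsRUS1-OX, against 10.7, 2.85 and 2.21 FPKM in WT (log2 fold change -3.54, standard error 0.80, adjusted p = 0.017 from edgeR), and its adjusted p was 0.058 without OsRUS1-OX replicate 2 and 0.055 without OsRUS1-OX replicate 3. On limma's scale its log2 fold change was -1.88.

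The 14 members low in WT replicate 1 included OS03G0752500, with 271, 329 and 355 FPKM in OsRUS1-OX and 66.5, 382 and 233 FPKM in WT, where the genotypes overlapped. OS04G0219550 had 8.55, 8.46 and 8.75 FPKM in OsRUS1-OX and 4.01, 24.3 and 11.4 FPKM in WT. OS09G0417600 had 9.87, 6.39 and 20.5 FPKM in OsRUS1-OX and 3.65, 19.9 and 13.2 FPKM in WT. OS09G0494500 had 19.3, 14.9 and 15.5 FPKM in OsRUS1-OX and 5.02, 24.2 and 14.98 FPKM in WT. All 4 overlapped between the genotypes. The class also held a pair of called genes, both lower in OsRUS1-OX. OS01G0186600, with graded WT values, had 0.64, 0.27 and 1.26 FPKM in OsRUS1-OX and 6.10, 15.9 and 26.5 FPKM in WT (log2 fold change -4.49, standard error 0.63, adjusted p = 0.0025 from edgeR). OS11G0598500 had 14.1, 7.37 and 15.9 FPKM in OsRUS1-OX and 42.0, 142 and 98.2 FPKM in WT (log2 fold change -2.99, standard error 0.46, adjusted p = 0.0038 from edgeR).

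Some members lay near each other in identifier order, and how many pairs their spacing alone would give was not tested. In the order of RAP identifiers, 18 pairs of successive members were at most 10 places apart, 9 in the same class and 9 in different classes, and they took in 35 members. OS02G0626100, OS02G0626400 and OS02G0627100 on chromosome 2 were all high in WT replicate 3. OS02G0626100 had 22.4, 20.4 and 15.3 FPKM in OsRUS1-OX and 26.5, 25.3 and 142 FPKM in WT, and OS02G0626400 had 45.4, 41.9 and 45.3 FPKM in OsRUS1-OX and 60.3, 53.2 and 209 FPKM in WT. OS01G0896700 and OS01G0896800 on chromosome 1 and OS04G0370900 and OS04G0371000 on chromosome 4 were further neighbours of that class. These neighbours were chosen after their values were seen.

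Opposite neighbours were found for WT replicate 2. OS05G0163200 had 86.4, 72.6 and 74.2 FPKM in OsRUS1-OX and 58.4, 176 and 53.8 FPKM in WT, whereas OS05G0163250, the next identifier on chromosome 5, was low in the same library, as given above. The shorter gene, at 268 bp, was the high one, and the longer, at 1847 bp, was the low one. On chromosome 10, OS10G0556801, of 274 bp, had 38.3, 38.0 and 43.2 FPKM in OsRUS1-OX and 24.998, 87.6 and 34.8 FPKM in WT, and OS10G0556700, of 1569 bp, had 11.3, 15.1 and 11.6 FPKM in OsRUS1-OX and 16.8, 3.53 and 16.8 FPKM in WT. How the counting treated strand and overlaps is not given in the sources used here, so reads of overlapping or antisense neighbours cannot be told apart.

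The spread over the OsRUS1-OX libraries was not used in the choice. The members had a median SD of 0.28 log2 units over OsRUS1-OX, against 0.12 over the 12755 genes, and 27 of them (13.5%) were among the 200 genes with the largest SD over OsRUS1-OX, which make up 1.57% of the 12755. The members also had fewer reads, with a median of 587.5 over the WT libraries beside 918 over the 12755 genes. Low counts raise the SD in either genotype, and their part in this difference was not tested. In 189 members the SD was smaller over OsRUS1-OX than over WT, as it was in 9285 of the 12755 genes, and the choice of members for a large WT SD favours this order. By class the median SD over OsRUS1-OX was between 0.24 in both WT replicate 2 classes and 0.43 in the class low in WT replicate 1. The share among the 200 most variable genes of OsRUS1-OX was 5.75% in the class low in WT replicate 2 and 29.2% in the class high in WT replicate 1.

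**Figure D4:**
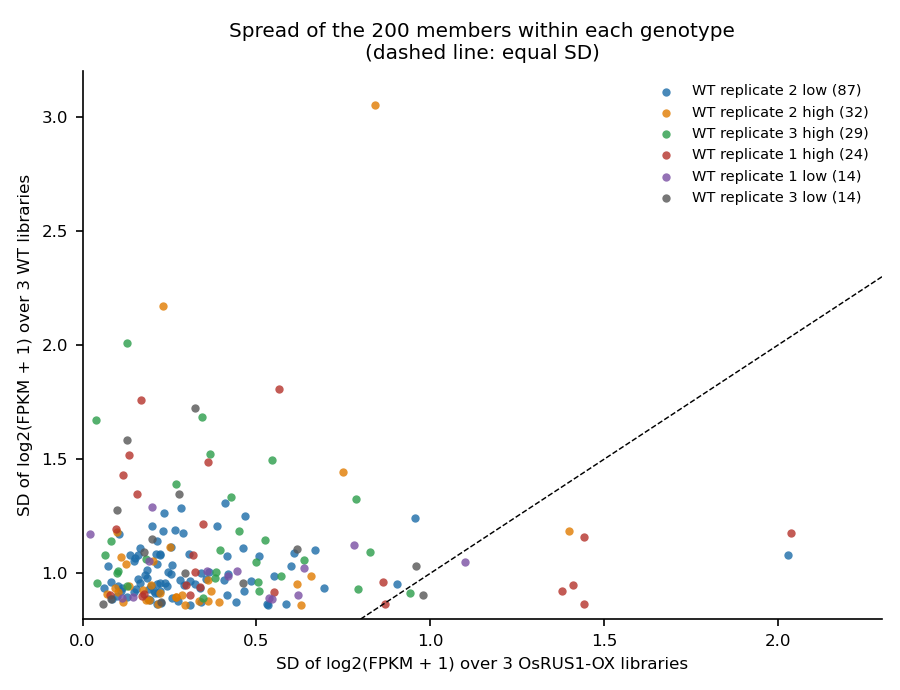
SD of log2(FPKM + 1) over the 3 OsRUS1-OX libraries (x axis) and over the 3 WT libraries (y axis) of the 200 members, coloured by class, with a dashed line at equal SD. The 11 points below the line include 6 of the class high in WT replicate 1, and the remaining 189 vary more in WT.

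The 11 members that varied more in OsRUS1-OX than in WT included 6 of the 24 members high in WT replicate 1. OS05G0181700 had 34.3, 1.20 and 4.63 FPKM in OsRUS1-OX and 30.2, 6.91 and 6.32 FPKM in WT. OS01G0714600 had 17.2, 1.74 and 3.06 FPKM in OsRUS1-OX and 13.6, 1.93 and 5.48 FPKM in WT. In both genes the libraries numbered 1 were the high ones of their genotype, though equal numbers belong to different plants. OS08G0556900 went against this, with 10.9, 87.0 and 30.8 FPKM in OsRUS1-OX and 24.2, 7.64 and 8.29 FPKM in WT. OS01G0368900, low in WT replicate 2, had 1.08, 20.2 and 25.2 FPKM in OsRUS1-OX and 20.6, 4.67 and 19.0 FPKM in WT, so that a different single library was low in each genotype.

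The libraries of OsRUS1-OX also had an order over the members of the WT replicate 2 classes. In the 87 members low in WT replicate 2, OsRUS1-OX replicate 2 was the highest OsRUS1-OX library in 70.1% and OsRUS1-OX replicate 1 the lowest in 64.4%, against 33.7% and 37.5% of the 12755 genes. The median deviation in this class was 0.33 log2 units for OsRUS1-OX replicate 2, -0.25 for replicate 1 and -0.04 for replicate 3. In the 32 members high in WT replicate 2, OsRUS1-OX replicate 1 was the highest in 62.5%, against 37.0% of the 12755 genes, and its median deviation was 0.29. The part of gene length in this order was not tested.

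The members often overlapped between the genotypes, and the wide WT range for which they were chosen enters this count. All OsRUS1-OX values were above all WT values in 19 members and below them in 23, against 21.8% and 21.1% of the 12755 genes. The 42 members without overlap were 21.0% of 200, beside 42.9% of the 12755 genes. The OsRUS1-OX mean lay inside the WT range in 133 members, beside 4940 of the 12755 genes. With WT replicate 2 left out the number without overlap was 104, beside 58.0% of the 12755 genes. Leaving out the library most often farthest from the others narrows the WT range for which the members were chosen.

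Between the genotypes, the count test of edgeR covered the 19694 features that passed the filter on low counts. It tested 196 of the 200 members and called 35 (adjusted p under 0.05), which is 17.9% beside 23.6% of all tested features and 24.6% of the tested genes among the 12755. OsRUS1-OX was higher in 13 members (6.63%), beside 11.8% of all tested features and 9.44% of the tested genes among the 12755. It was lower in 22 members (11.2%), beside 11.8% and 15.1%. The choice of members for a wide WT spread enters this test, so the counts are a description. The median log2 fold change was -0.09 over the members tested and -0.05 over the tested genes among the 12755. With library totals in place of TMM scaling the split was 17 higher and 19 lower.

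The calls were uneven over the classes. OsRUS1-OX was higher in 7 and lower in 0 of the 14 members low in WT replicate 3, and higher in 2 and lower in 9 of the 28 tested members high in WT replicate 3. In the 87 members low in WT replicate 2 it was higher in 2 and lower in 7. A WT library that is low by itself reduces the WT mean, so the direction of a class is in part set by its definition. With WT replicate 3 left out, 8 members of the class low in it were called higher and 1 lower. In the class high in it, 4 were called higher and 8 lower. That fit called 19.9% of the eligible genes. Leaving out the library that defines a class removes spread for which its members were chosen, which favours calls. The median log2 fold change was 2.12 in the class low in WT replicate 3, -1.73 in the class high in WT replicate 3, 0.01 in the class low in WT replicate 2 and -0.50 in the class high in WT replicate 2. Whether the classes differ was not tested.

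**Figure D5:**
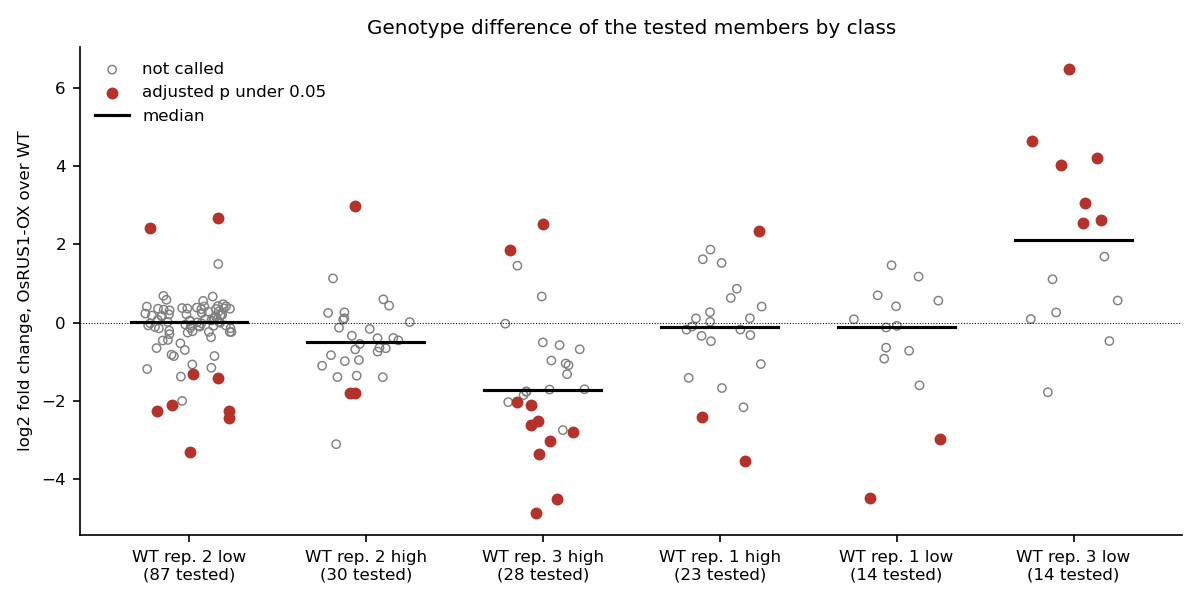
Log2 fold change of OsRUS1-OX over WT (y axis) of the 196 tested members by class (x axis), with filled points for members called by edgeR (adjusted p under 0.05), open points for the rest and lines at the class medians. The medians are 2.12 in the class low in WT replicate 3 and -1.73 in the class high in WT replicate 3, and the 87 members low in WT replicate 2 centre on 0.01.

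The number of calls depended on single libraries. Without WT replicate 2, 70 members were called, 19 higher and 51 lower, and 31 of them were among the 35. In that fit, 29 members low in WT replicate 2 were lower in OsRUS1-OX, in place of 7. WT replicate 2 was farthest out in 119 members. Leaving it out removes spread that the members were chosen for, which favours more calls. Without OsRUS1-OX replicate 2, 15 were called, and without OsRUS1-OX replicate 3, 17, all of them among the 35. Over the same 12755 genes the share called was 28.5% without WT replicate 2, 12.6% without OsRUS1-OX replicate 2 and 11.9% without OsRUS1-OX replicate 3.

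Calls were also made in the classes of WT replicates 1 and 2. OS08G0389700, low in WT replicate 2, had 315, 703 and 422 FPKM in OsRUS1-OX and 105, 32.4 and 77.6 FPKM in WT (log2 fold change 2.68, standard error 0.46, adjusted p = 0.0057 from edgeR). OS11G0666200, of the same class, had 1.02, 0.16 and 1.01 FPKM in OsRUS1-OX and 13.3, 2.06 and 5.79 FPKM in WT (log2 fold change -3.30, standard error 0.77, adjusted p = 0.019 from edgeR), and its adjusted p was 0.056 without OsRUS1-OX replicate 2 and 0.057 without OsRUS1-OX replicate 3. In limma the log2 fold change of OS11G0666200 was -1.99. OS08G0389700 rose and OS11G0666200 fell in OsRUS1-OX. OS12G0555500, for which the tables give a defence response, was not called, with 32.4, 22.4 and 18.1 FPKM in OsRUS1-OX and 12.6, 2.83 and 9.55 FPKM in WT (adjusted p = 0.051 from edgeR).

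OS05G0575000, high in WT replicate 2, had 23.1, 120.5 and 20.4 FPKM in OsRUS1-OX and 3.55, 13.7 and 2.03 FPKM in WT. In both genotypes the library numbered 2 was the highest, by far in OsRUS1-OX. It was called higher, by 2.97 on the log2 scale (standard error 0.90, adjusted p = 0.048 from edgeR). The call was lost without WT replicate 1 (adjusted p = 0.13), without WT replicate 3 (0.11), without OsRUS1-OX replicate 2 (0.16, with a log2 fold change of 1.63) and without OsRUS1-OX replicate 3 (0.051).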

How the data were processed

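RNA-seq of 3 OsRUS1-OX and 3 WT flag leaf libraries was analysed. The authors mapped the filtered pairs with TopHat2 2.0.12 on the rice genome of Ensembl Plants and counted reads per gene with HTSeq 0.6.1, per the labels and the methods. The deposited counts are not normalized, and the deposited FPKM values were made by the authors from these counts and gene lengths. Columns were matched to samples by title, and 0 columns were left unused. Gene lengths were recovered from counts and FPKM.

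Members were ranked by the SD of log2(FPKM + 1), with a pseudocount of 1. The members, the lists and the rule for naming genes were chosen with earlier results of these data known. Named were the 4 members with the largest WT SD per class, the 8 called members with the largest and the 8 with the smallest log2 fold change, the 4 with the largest and the 4 with the smallest SD over OsRUS1-OX, up to 4 per functional list, and 3 genes on each side of the threshold. Others are marked where named or are described members. Descriptions came from the study's supplementary tables. No sequence was read.

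The genotypes were compared on counts by edgeR 4.0.16, run under R 4.3.3 (TMM, default filter by genotype, quasi-likelihood test, Benjamini-Hochberg adjustment over 19694 features). Standard errors were derived as the absolute log2 fold change over the square root of the F statistic of that test. The labels give only replicate numbers. The study's methods say that leaves were collected 3 times independently and that each pool took 3 plants. Alternatives were DESeq2 1.42.0, limma 3.58.1 on log2(FPKM + 1), other scalings, no filter, a replicate block and each library left out. The fit was tested on simulated data. With 3 libraries per genotype, intervals on single genes are wide.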

Additional observations from a re-analysis of the deposited data

How the results depend on the processing

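The count of called members was 34 with RLE factors (24.4% of the eligible genes were called in the same fit), 36 with library totals (23.5%), 52 without the filter (23.8%), 47 with DESeq2 (26.3%) and 31 with limma (22.2%). Limma called 19 members higher and 12 lower. With 1 library left out, the count ranged from 15 to 70, with 8 to 19 higher and 7 to 51 lower. The share of the eligible genes called in these fits ranged from 11.9% to 28.5%. The replicate number as a block gave 47 called members, 20 higher and 27 lower, 33 of them among the 35. In that fit 21.4% of the eligible genes were called. Leaves were collected 3 times independently. Whether equal numbers share a collection is not stated, and the following correlations do not settle it. Deviations of equally numbered libraries correlated at 0.13, -0.09 and 0.11 over 19694 features, and WT replicate 2 correlated best with OsRUS1-OX replicate 1. Members without overlap between genotypes numbered 45 after TMM or upper-quartile rescaling, beside 43.9% and 44.0% of the eligible genes. They numbered between 43 and 104 with 1 library left out, beside 46.8% to 58.0%. Without the class low in WT replicate 2, they were 35 of 113, beside 42.9%. Another member rule kept between 136 and 197 of the 200, except that 76 were kept by the SD over WT replicates 1 and 3 only. WT replicate 2 was farthest out in 118 to 122 members on other scales. The median SD over OsRUS1-OX lay between 0.26 and 0.30 under other scales, and between 0.19 and 0.29 with 1 library left out. Of the 20 called members whose fold changes are given, 14 were called in every setting and 0 reversed. Depth limits the 4 members that did not pass the filter and the 3 with under 50 WT reads. Only 14 members are described, and 1 line and 3 pools per genotype bound what the contrast covers.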
